A study of Homo sapiens with 6 samples.

Results

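The genes TXNIP, ARRDC4, ARRDC3, ARRDC2, ARRDC1, MLXIP and MLX were taken by their symbols from the deposited expression tables of the human lung cancer line 95D, and their RNA levels were compared across 3 culture media. All 7 were found among 59609 gene rows, and all 7 passed the filter of at least 1 FPKM (fragments scaled to transcript length and to the library's mapped fragments) in at least 1 library. The cells, labelled wild type, were seeded for 24 h in complete DMEM and then kept for 48 h in glutamine-free DMEM, in glucose-free DMEM or in control DMEM, each with 10% serum. Dialyzed serum is given for the glutamine-free and the glucose-free medium but not for the control medium, so the absent nutrient and the serum cannot be told apart in a comparison with control. The libraries used were 1 without glutamine, 2 without glucose and 2 of control medium, all from this single cell line, and nothing in the labels says that replicates came from separate cultures. The p-values therefore measure only the spread between these libraries, which may be technical. For glutamine deprivation, with 1 library, the spread was taken from the replicates of the remaining groups.

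TXNIP and the ARRDC genes encode alpha-arrestins, adaptor proteins that bind membrane cargo and recruit ubiquitin ligases of the NEDD4 family to it. TXNIP also binds thioredoxin, and TXNIP and ARRDC4 lower glucose uptake. MLXIP encodes MondoA, a basic helix-loop-helix factor that pairs with MLX, enters the nucleus when glucose 6-phosphate accumulates, and binds carbohydrate response elements, paired E-box-like sites, in the promoters of TXNIP and ARRDC4. In cultured cells glutamine has been described to lower TXNIP transcription through MondoA.

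The promoters of TXNIP and ARRDC4, the members known as MondoA targets, are shown from RefSeq (GRCh38.p14), 250 bases before to 50 after the annotated start, 5′ to 3′ on the gene's strand. The TXNIP window lies at chr1:145996530-145996829 on the minus strand, and the ARRDC4 window at chr15:97960453-97960752 on the plus strand. Capitals mark matches to the E box CACGTG or to the paired motif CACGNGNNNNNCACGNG, both searched on both strands.
TXNIP: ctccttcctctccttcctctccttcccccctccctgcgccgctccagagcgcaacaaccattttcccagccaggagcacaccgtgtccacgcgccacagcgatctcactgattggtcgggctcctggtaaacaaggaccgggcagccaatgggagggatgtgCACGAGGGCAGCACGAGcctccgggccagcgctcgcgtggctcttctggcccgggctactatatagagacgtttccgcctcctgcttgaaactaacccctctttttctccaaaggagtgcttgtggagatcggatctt
ARRDC4: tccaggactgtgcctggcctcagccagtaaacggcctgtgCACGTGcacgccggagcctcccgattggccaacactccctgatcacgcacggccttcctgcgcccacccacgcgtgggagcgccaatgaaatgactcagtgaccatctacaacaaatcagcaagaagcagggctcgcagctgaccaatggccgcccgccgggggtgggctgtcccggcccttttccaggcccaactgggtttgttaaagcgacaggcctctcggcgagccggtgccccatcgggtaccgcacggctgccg

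The TXNIP window held the paired motif as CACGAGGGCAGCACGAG, from -88 to -72 relative to the start (the start itself is 1). A second TXNIP window in the table, at chr1:145995695-145995994, held none of the motifs searched. The paired motif occurred in 20 of 35116 promoter windows in the RefSeq table, or 0.057%. In this motif both parts run in the same direction, and paired elements of other forms were not searched. The ARRDC4 window held an E box from -210 to -205, a motif found in 7.26% of windows, and no match to the paired motif. The MLX window also held an E box, from -50 to -45. The CCAAT box (CCAAT, both strands), present in 34.6% of windows, matched at 2 places in the TXNIP window and at 3 in the ARRDC4 window. A window of each remaining member held a match to it as well. A match is a description of the letters and not evidence of binding.

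The libraries held an inferred 34600000 reads without glutamine, 36840000 and 35050000 without glucose and 35500000 and 48940000 in control. Levels below are FPKM divided by a scaling factor per library. Across 16752 genes tested, log2 levels correlated between replicates with r = 0.986 without glucose and r = 0.991 in control, and between groups with r of 0.954 to 0.962; genes are not independent replicates. Among cell type markers, the epithelial keratin gene KRT18 stood at 16.9 FPKM without glutamine and at 16.0 and 19.1 FPKM without glucose. In control it stood higher, at 21.7 and 21.0 FPKM. The keratin gene KRT8 went the other way, at 5.14 FPKM without glutamine and at 4.86 and 5.50 FPKM without glucose. Its control values were 4.61 and 4.15 FPKM. KRT19 was at 0 in all 5 libraries, and KRT7 reached at most 0.0073 FPKM. The epithelial genes EPCAM and CDH1 reached at most 0.249 FPKM, and the lung factor gene NKX2-1 lay between 0.709 and 1.17 FPKM. The lung genes NAPSA and SFTPC reached at most 0.417 and 0.0184 FPKM, and SFTPB was at 0 throughout. The leukocyte markers summed to 1.005 FPKM without glutamine, to 0.927 and 0.913 FPKM without glucose and to 1.33 and 0.986 FPKM in control, and the endothelial markers to at most 0.0455 FPKM. The 4 fibroblast markers, carried by COL1A1, summed to 1.90 FPKM without glutamine, to 0.407 and 0.400 FPKM without glucose and to 0.694 and 0.624 FPKM in control; the part of this difference in the results below was not tested. The test (limma on log2(FPKM + 1), Benjamini-Hochberg adjusted p under 0.05 over all genes) called 50.8% of genes without glutamine, 54.3% without glucose and 44.2% between the deprivations, so a call alone sets no gene apart. Without control replicate 1 it called 5595 genes in place of 8515 without glutamine and 5627 in place of 9094 without glucose, and without control replicate 2 it called 5405 and 5775.

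TXNIP had the largest change of the 7 genes without glucose and the lowest mean of them there, with values that overlapped those of ARRDC2. The gene lies on chromosome 1 from 145992435 to 145996600, minus strand (GRCh38, GENCODE release 29, as for all genes below). Without glucose it stood at 1.36 and 1.17 FPKM, against 6.13 and 6.31 FPKM in control. Both deprived libraries lay far below both controls, at 20.4% of the control mean. The log2 fold change was -1.67 ± 0.064 (SE, limma adjusted p = 6.52e-06), and 55 of the 16752 genes tested fell further. About 146 to 184 reads stood behind the TXNIP values without glucose, against 756 to 1086 in control, a counting error of at most 8.28%. Because 1 FPKM is added before the logarithm, this scale understates the change of a gene at this level, and with 0.1 FPKM added the log2 fold change was -2.21. Ranks here and below are on this scale, which shrinks the changes of genes at lower levels more. CR392039.1, at 11.4% of its control mean, had -1.32 and is not among the 55.

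ARRDC4, the other known glucose-responsive arrestin (chromosome 15, 97960698 to 97973838, plus strand), also fell without glucose. It stood at 3.20 and 3.16 FPKM without glucose, against 7.51 and 6.78 FPKM in control. The groups did not overlap, and the mean without glucose was 44.5% of the control mean. The log2 fold change was -0.96 ± 0.062 (limma adjusted p = 2.74e-05), with 207 genes lower. TXNIP over ARRDC4, the ratio of their FPKM in each library, was 0.425 and 0.371 without glucose, against 0.816 and 0.930 in control. TXNIP and ARRDC4 kept their direction and their call in all 19 other settings tried for this comparison. Leaving out the glutamine-deprived library and fitting only the 2 groups compared were the same fit, so the 19 include a repeat.

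**Figure D1:**
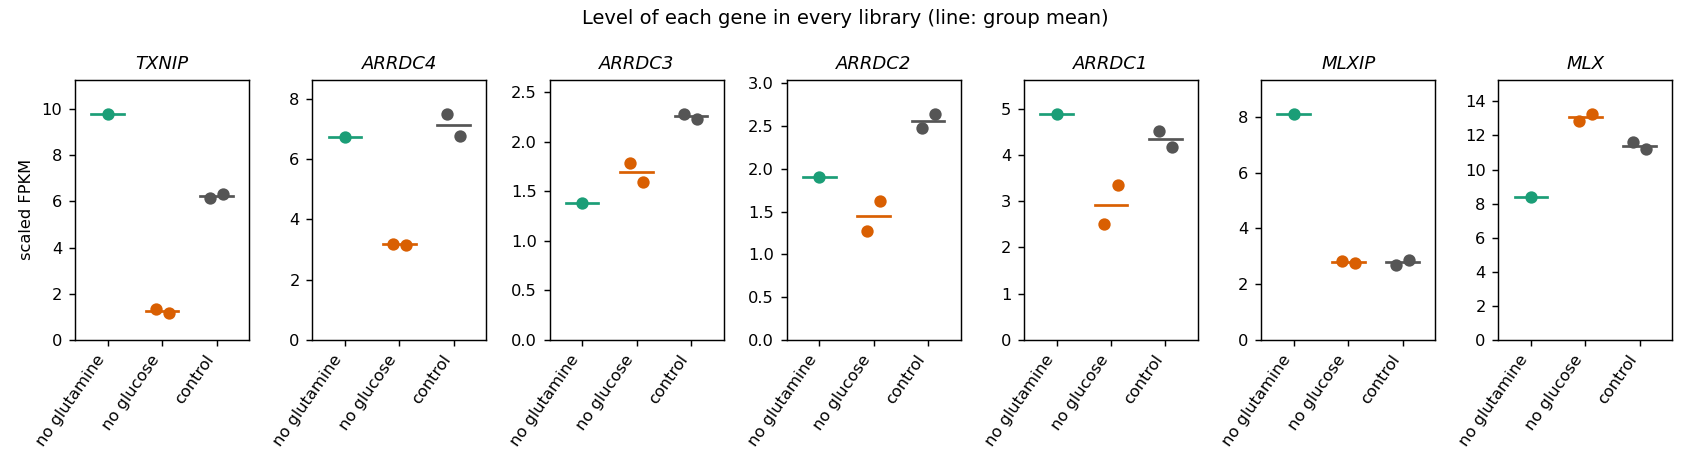
Scaled FPKM of the 7 genes (y axis, from 0, own scale per gene) in each library (points) without glutamine, without glucose and in control, with a line at the group mean. TXNIP sits at 9.80 FPKM without glutamine, at 1.36 and 1.17 FPKM without glucose and at 6.13 and 6.31 FPKM in control, and MLXIP is high in the glutamine-deprived library.

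ARRDC2, ARRDC1 and ARRDC3 fell by less without glucose. ARRDC2 (chromosome 19, 18001132 to 18014102, plus strand) stood at 1.27 and 1.62 FPKM without glucose, against 2.48 and 2.65 FPKM in control (-0.54 ± 0.089 log2, limma adjusted p = 0.0016). ARRDC1, whose protein drives budding of vesicles at the plasma membrane (chromosome 9, 137605654 to 137615360, plus strand), stood at 2.50 and 3.34 FPKM without glucose, against 4.51 and 4.18 FPKM in control (-0.45 ± 0.103 log2, limma adjusted p = 0.00749). ARRDC3, an adaptor that binds integrin beta 4 (chromosome 5, 91368724 to 91383359, minus strand), stood at 1.79 and 1.60 FPKM without glucose, against 2.29 and 2.23 FPKM in control (-0.28 ± 0.074 log2, limma adjusted p = 0.0158). In each of these genes both libraries without glucose lay below both controls, as for TXNIP and ARRDC4. How many of all genes separate in this way was not computed, so the separation sets no gene apart.

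The calls of ARRDC3 and ARRDC1 were lost when either control was left out, with fold changes close to those above. Without control replicate 1 ARRDC3 had a log2 fold change of -0.27 (limma adjusted p = 0.107) and ARRDC1 of -0.42 (0.0977). Without control replicate 2 ARRDC3 had -0.29 (0.0894) and ARRDC1 had -0.51 (0.0657). ARRDC3 had an adjusted p of 0.0785 when glucose deprivation replicate 2 was left out, of 0.266 when scaled to the total (-0.195 log2), of 0.0576 with no filter on low values and of 0.0546 after removal of a trend over GC content and length (-0.184 log2). The ARRDC1 call was also lost with no filter (0.138) and with no variance trend (0.0539), and the ARRDC2 call with no filter (0.0517). Without glucose deprivation replicate 1 the log2 fold change of ARRDC1 was -0.30, still called (adjusted p = 0.0338). ARRDC1-AS1, an antisense RNA whose exons share 29 bases with those of ARRDC1, fell as well (-0.59 ± 0.080 log2, limma adjusted p = 0.000643). It stood at 3.28 and 3.62 FPKM without glucose, against 6.02 and 5.37 FPKM in control. ARRDC3-AS1, whose exons share 145 bases with those of ARRDC3, stayed below the filter and was not tested. Its values were 0.601 and 0.496 FPKM without glucose, above the 0.434 and 0.438 FPKM in control. The strand setting of the authors' counting was not given in the sources used here, so reads of the shared bases cannot be assigned.

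Of the factors, MLX rose slightly without glucose and MLXIP did not pass the test. MLXIP (chromosome 12, 122078722 to 122147347, plus strand) stood at 2.84 and 2.74 FPKM without glucose, against 2.69 and 2.86 FPKM in control, with overlapping groups (0.0049 ± 0.046 log2, limma adjusted p = 0.938). MLX (chromosome 17, 42567068 to 42573239, plus strand) stood at 12.9 and 13.3 FPKM without glucose, against 11.6 and 11.2 FPKM in control (0.18 ± 0.046 log2, limma adjusted p = 0.0127). The MLX call was lost without control replicate 1 (0.0701), control replicate 2 (0.129) or glucose deprivation replicate 2 (0.051). It was also lost with no filter (0.0574), with no variance trend (0.0532) and when scaled to the total (0.118). Under that last scaling the log2 fold change of MLX was larger, at 0.29, and so was its SE, at 0.146. In all, 5 of 7 members fell without glucose, 1 rose and 1 did not pass, where 28.0% of all genes were called lower and 26.3% higher. Scaled to the total, or with no variance trend, 4 members were called lower and 0 higher. The members' median log2 fold change was -0.45 and that of all genes 0.025. The values are bulk RNA of whole cultures, so a lower level in every cell and fewer cells expressing a gene cannot be told apart.

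Without glutamine the pattern differed: TXNIP and MLXIP rose, MLX and ARRDC3 fell, and ARRDC4, ARRDC2 and ARRDC1 did not pass the test. TXNIP stood at 9.80 FPKM without glutamine, against 6.13 and 6.31 FPKM in control, 158% of the control mean (0.58 ± 0.079 log2, limma adjusted p = 0.00075). MLXIP stood at 8.11 FPKM without glutamine, against 2.69 and 2.86 FPKM in control, 292% of the control mean. Its log2 fold change of 1.27 ± 0.057 (limma adjusted p = 3.62e-05) was exceeded by 220 genes. Both values lay outside the range of the controls, a separation not counted over all genes. Both genes kept their call in all 18 other settings tried.

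MLXIP has long and GC-rich transcripts, at percentiles 97.1 for exon length and 80.9 for GC content among genes tested. Across 16437 genes the median log2 fold change without glutamine was 0.16 in the 25% of genes highest in GC content and -0.103 in the 25% lowest in it. By length, from the shortest 25% of genes to the longest 25%, the medians were 0.248, -0.119, -0.034 and 0.11. After removal of a trend over GC content and length, an alternative chosen after seeing the data, the log2 fold change of MLXIP was 0.85.

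MLX, the partner of MLXIP in DNA binding, stood at 8.38 FPKM without glutamine, against 11.6 and 11.2 FPKM in control (-0.40 ± 0.057 log2, limma adjusted p = 0.000898). This call was lost under scaling to the total (-0.11 log2, adjusted p = 0.655). The antisense neighbour PSMC3IP, whose exons cover 770 bases or 18.1% of those of MLX, stood at 7.26 FPKM without glutamine, against 9.02 and 9.09 FPKM in control; its part in the MLX value was not tested. MLXIP over MLX, the ratio of their FPKM, was 0.968 without glutamine, 0.221 and 0.207 without glucose and 0.232 and 0.256 in control. The glutamine-deprived library alone had the factors at similar levels per length.

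ARRDC4 stood at 6.73 FPKM without glutamine, just under the controls at 7.51 and 6.78 FPKM (-0.075 ± 0.076 log2, limma adjusted p = 0.439), and the sign of this difference turned with the scaling, to 0.072 with the values as deposited and 0.21 when scaled to the total. ARRDC1 stood at 4.89 FPKM without glutamine, against 4.51 and 4.18 FPKM in control (0.14 ± 0.126 log2, limma adjusted p = 0.38), and passed the test when scaled to the total (0.41 log2, adjusted p = 0.04). ARRDC2 stood at 1.90 FPKM without glutamine, against 2.48 and 2.65 FPKM in control (-0.29 ± 0.109 log2, limma adjusted p = 0.0561), and passed the test in 7 of 18 other settings. ARRDC3 stood at 1.39 FPKM without glutamine, against 2.29 and 2.23 FPKM in control (-0.45 ± 0.091 log2, limma adjusted p = 0.00485). The ARRDC3 call was lost under scaling to the total (adjusted p = 0.233) and after removal of the GC and length trend (-0.16 log2, adjusted p = 0.166). Thus 2 of 7 members rose and 2 fell without glutamine, where 24.5% of all genes were called higher and 26.3% lower. Scaled to the total, 3 members were called higher and 0 lower, with 91.03% of all calls higher. The members' median was -0.075 and that of all genes 0.048 on the log2 scale.

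**Figure D2:**
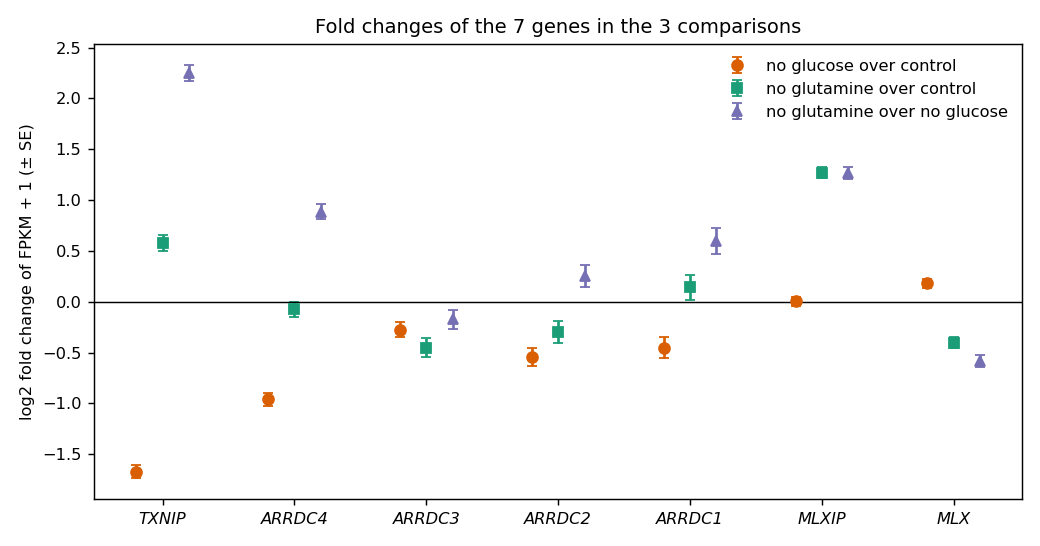
Log2 fold change of FPKM + 1 (y axis) with its SE for the 7 genes (x axis): glucose deprivation over control (circles), glutamine deprivation over control (squares) and glutamine deprivation over glucose deprivation (triangles). TXNIP lies at -1.67, 0.58 and 2.25, while MLXIP lies at 1.27 and 1.26 in the comparisons with the glutamine-deprived library and near 0 without glucose.

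The deprivations were also compared with each other, with dialyzed serum on both sides. Genes were again ranked by the change in log2(FPKM + 1), not by the ratio of means. CR392039.1, with a ratio of 14.6, had 1.89 log2 and so ranks below TXNIP. TXNIP stood at 9.80 FPKM without glutamine, against 1.36 and 1.17 FPKM without glucose, a ratio of means of 7.73. Its log2 fold change of 2.25 ± 0.079 (limma adjusted p = 2.17e-05) was exceeded by 10 of the 16752 genes tested. ARRDC4 was higher without glutamine, at 6.73 FPKM, against 3.20 and 3.16 FPKM without glucose (0.89 ± 0.076 log2, limma adjusted p = 0.000197). MLXIP was higher (1.26 ± 0.057 log2, limma adjusted p = 3.95e-05), as was ARRDC1 at 4.89 FPKM without glutamine, against 2.50 and 3.34 FPKM without glucose (0.60 ± 0.126 log2, limma adjusted p = 0.0073). MLX was lower, at 8.38 FPKM without glutamine, against 12.9 and 13.3 FPKM without glucose (-0.58 ± 0.057 log2, limma adjusted p = 0.000302). The MLX call was lost under scaling to the total (adjusted p = 0.0883), and the ARRDC1 call was lost without a filter on low values (0.119) and without a variance trend (0.0579).

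ARRDC2 (0.25 ± 0.109 log2, limma adjusted p = 0.101) and ARRDC3 (-0.17 ± 0.091 log2, limma adjusted p = 0.161) did not pass this test. In total 4 of 7 members were higher without glutamine than without glucose and 1 was lower, where 22.2% of all genes were called higher and 22.0% lower. The members' median log2 fold change was 0.60 and that of all genes 0.017. The comparisons with control share the control libraries, and all 3 comparisons share libraries pairwise, so their values are not independent of each other.

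Per length, the order of the 7 genes changed between media. In the glutamine-deprived library the order was TXNIP, MLX, MLXIP, ARRDC4, ARRDC1, ARRDC2 and ARRDC3, with no replicate to set beside it. Without glucose MLX stood highest at 13.1 ± 0.304 FPKM (SD, n = 2), followed by ARRDC4 at 3.18 ± 0.0330, ARRDC1 at 2.92 ± 0.598 and MLXIP at 2.79 ± 0.0662 FPKM, whose replicate values overlapped from each neighbour to the next. ARRDC3, ARRDC2 and TXNIP followed, again with overlap between neighbours. In control MLX (11.4 ± 0.306 FPKM) stood above ARRDC4 (7.15 ± 0.517), TXNIP (6.22 ± 0.126), ARRDC1 (4.34 ± 0.236), MLXIP (2.78 ± 0.119), ARRDC2 (2.56 ± 0.120) and ARRDC3 (2.26 ± 0.0372), and no neighbours overlapped. Among all genes tested, TXNIP lay at percentile 74.2 of the levels without glutamine, 17.9 without glucose and 60.6 in control.

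Summed over the 5 arrestin members, RNA stood at 24.7 FPKM without glutamine, at 10.1 and 10.9 FPKM without glucose and at 22.9 and 22.1 FPKM in control. TXNIP made up 39.6% of this sum without glutamine, 13.5% and 10.8% without glucose and 26.8% and 28.5% in control. The share of ARRDC4 moved far less, at 27.2% without glutamine, 31.6% and 28.98% without glucose and 32.8% and 30.6% in control.

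**Figure D3:**
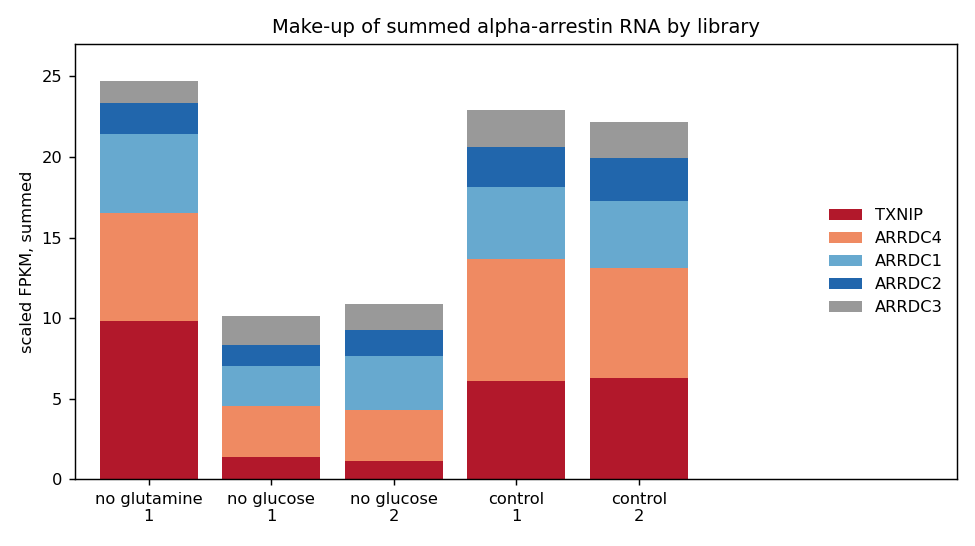
Summed scaled FPKM of TXNIP, ARRDC4, ARRDC1, ARRDC2 and ARRDC3 (y axis, from 0) in each library (bars), stacked by gene. The sum is 24.7 FPKM without glutamine, 10.1 and 10.9 FPKM without glucose and 22.9 and 22.1 FPKM in control, and in both glucose-deprived libraries the TXNIP segment is smaller than those of ARRDC4, ARRDC1 and ARRDC3.

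Other partners of MLX were also measured. Beside the counts of this list and the lists below, 24.5% of all genes were called higher and 26.3% lower without glutamine. Without glucose 26.3% were called higher and 28.0% lower, so a count near these shares sets no list apart. Of the 5 listed factors that pair with MLX on DNA, MLXIP included, 3 rose and 0 fell without glutamine (median 0.85 log2), and 3 rose and 1 fell without glucose (median 0.34). MLXIPL, which encodes ChREBP, the liver relative of MondoA, stood at 3.11 FPKM without glutamine (0.85 ± 0.109 log2, limma adjusted p = 0.000583), at 1.81 and 1.96 FPKM without glucose (0.34 ± 0.089 log2, limma adjusted p = 0.0148) and at 1.45 and 1.13 FPKM in control. The repressor gene MNT stood at 4.68 FPKM without glutamine, at 2.99 and 2.94 FPKM without glucose and at 1.76 and 1.85 FPKM in control, and rose in both deprivations (1.02 ± 0.064 and 0.50 ± 0.052 log2). MXD1, another repressor gene of this network, rose without glucose (0.71 ± 0.075 log2) and did not pass without glutamine (0.23 ± 0.091 log2, limma adjusted p = 0.0695), and MXD4 fell without glucose (-0.26 ± 0.045 log2).

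Genes known as carbohydrate response genes in liver or other cells moved in both directions. Of 20 listed, 19 were found and 13 passed the filter. Without glutamine 3 rose and 2 fell (median 0.0074 log2), and without glucose 3 rose and 4 fell (median -0.11 log2). The lipid synthesis genes ELOVL6 (-0.63 ± 0.045 log2) and ACLY (-0.61 ± 0.041) and the malic enzyme gene ME1 (-0.58 ± 0.060) fell without glucose. The transcription factor gene KLF15 rose, at 8.34 and 9.42 FPKM without glucose, against 6.57 and 5.71 FPKM in control. Without glutamine ACLY (-0.19 ± 0.050 log2) and ME1 (-0.35 ± 0.073) also fell and KLF15 also rose (0.41 ± 0.099), while ELOVL6 did not pass (-0.093 ± 0.056). The fatty acid synthase gene FASN rose without glutamine, at 69.7 FPKM, against 35.5 and 36.04 FPKM in control (0.94 ± 0.053 log2). FASN also rose, by less, without glucose, at 39.8 and 41.75 FPKM (0.18 ± 0.043 log2). KLF10, a transcription factor gene and carbohydrate response gene, stood at 5.69 FPKM without glutamine, at 4.83 and 5.19 FPKM without glucose and at 6.03 and 5.29 FPKM in control, and passed neither test against control (limma adjusted p = 0.95 and 0.116).

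Among the thioredoxin system and other TXNIP partners, 2 of 8 genes tested rose and 4 fell without glutamine (median -0.098 log2), and 0 rose and 4 fell without glucose (median -0.13 log2). TXN, the thioredoxin that TXNIP binds, stood at 131 FPKM without glutamine, at 156 and 165 FPKM without glucose and at 251 and 241 FPKM in control, and fell in both (-0.90 ± 0.056 and -0.61 ± 0.045 log2). The thioredoxin reductase gene TXNRD1 also fell in both (-0.67 ± 0.054 and -0.54 ± 0.044 log2). DDIT4, which encodes the mTORC1 inhibitor REDD1, a TXNIP partner, stood at 57.1 FPKM without glutamine, at 22.4 and 21.9 FPKM without glucose and at 25.3 and 20.4 FPKM in control (1.29 ± 0.108 log2 without glutamine). NLRP3, another TXNIP partner, did not exceed 0.0395 FPKM.

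Of 9 glucose carriers and glucose 6-phosphate enzymes tested, 2 rose and 2 fell without glutamine (median -0.059 log2), and 3 rose and 5 fell without glucose (median -0.18 log2). SLC2A1, which encodes the glucose carrier GLUT1 that TXNIP removes from the membrane, stood at 5.28 FPKM without glutamine, at 7.91 and 9.32 FPKM without glucose and at 6.58 and 7.39 FPKM in control; it fell without glutamine (-0.34 ± 0.0999 log2, limma adjusted p = 0.0229) and rose without glucose (0.27 ± 0.082 log2, limma adjusted p = 0.0267). The hexokinase gene HK2 rose without glucose, at 19.7 and 17.2 FPKM, against 12.2 and 12.03 FPKM in control, and did not pass without glutamine (limma adjusted p = 0.48). HK1 fell without glucose (-0.18 ± 0.049 log2), as did the carrier genes SLC2A12 (-0.52 ± 0.091) and SLC2A6 (-0.51 ± 0.073). SLC2A4, which encodes the insulin-responsive carrier GLUT4, rose without glucose (0.66 ± 0.076). Without glutamine SLC2A4 also rose (0.47 ± 0.093 log2) and SLC2A6 also fell (-0.27 ± 0.090), while HK1 and SLC2A12 did not pass.

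Alpha-arrestins recruit ubiquitin ligases of the NEDD4 family. Of 8 tested, 3 rose and 1 fell without glutamine (median 0.12 log2), and 4 rose and 0 fell without glucose (median 0.14 log2). NEDD4L, a gene at a low level, rose in both, to 157% of the control mean without glutamine and 147% without glucose (0.33 ± 0.070 and 0.28 ± 0.057 log2). ITCH, a partner of TXNIP, fell without glutamine (-0.15 ± 0.051 log2) and did not pass without glucose (limma adjusted p = 0.395). Among arrestin cargo and partners, 3 of 6 tested rose and 2 fell without glutamine (median 0.049), and 3 rose and 0 fell without glucose (median 0.088). The receptor gene NOTCH1 rose without glutamine, at 8.13 FPKM, against 3.53 and 3.46 FPKM in control. The insulin receptor gene INSR rose in both (0.69 ± 0.063 and 0.36 ± 0.051 log2), and ITGB4, which encodes an integrin that ARRDC3 binds, stayed below the filter. Of the more distant arrestin relatives, 3 of 4 tested rose and 1 fell without glutamine (median 0.25), and 0 rose and 1 fell without glucose (median -0.034). ARRB1, a beta-arrestin gene, fell without glucose, at 1.95 and 2.12 FPKM, against 4.09 and 3.78 FPKM in control. Without glutamine ARRB1 rose, at 5.65 FPKM (0.43 ± 0.076 log2). ARRDC5 was listed at 0 in all 5 libraries.

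**Figure D4:**
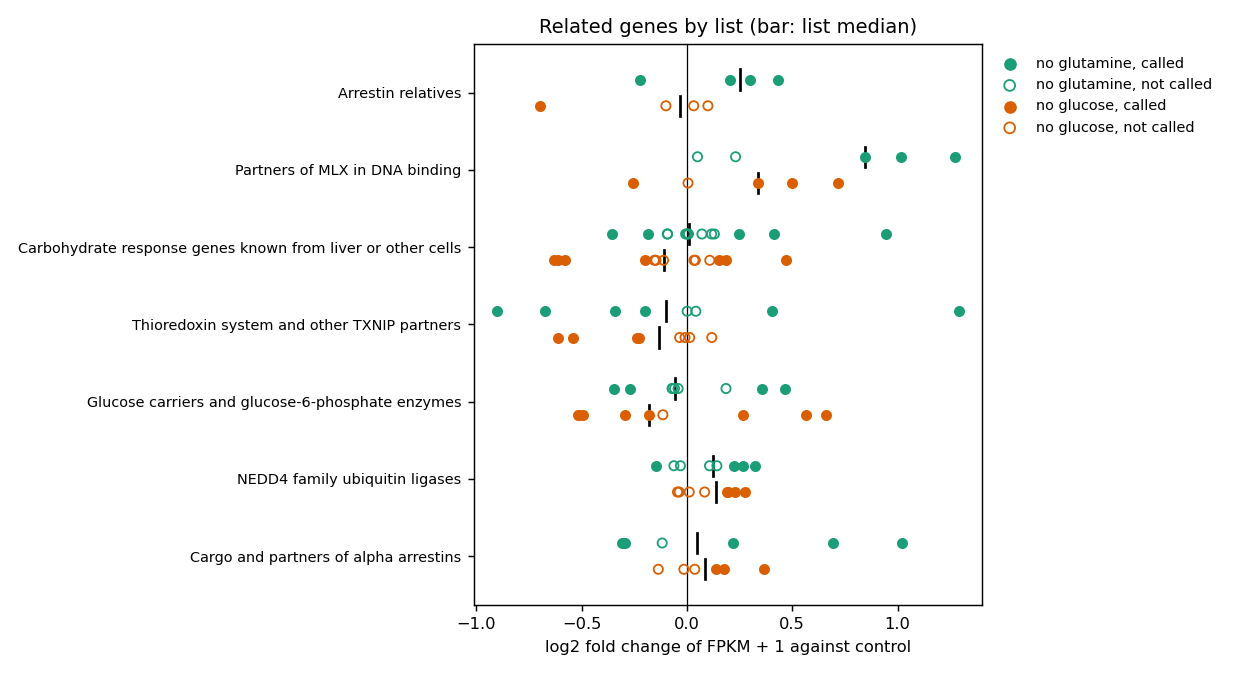
Log2 fold change of FPKM + 1 against control (x axis) of each tested gene in 7 lists of related genes (rows), for glutamine deprivation (upper dots) and glucose deprivation (lower dots), filled where the adjusted p is under 0.05, with a bar at the list median. The medians lie between -0.098 and 0.85 without glutamine and between -0.18 and 0.34 without glucose.

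The genes whose pair of fold changes against control lay nearest to that of TXNIP, by Euclidean distance among 14450 genes with a mean log2(FPKM + 1) of at least 1, were RNA5-8SN3 (distance 0.044), CR392039.1 (0.354), RNU1-1 (0.544), RNU6-7 (0.574) and METTL7A (0.588). The first 4 varied widely between the glucose-deprived replicates; RNA5-8SN3, for one, stood at 15.0 FPKM without glutamine, at 5.08 and 0.952 FPKM without glucose and at 9.41 and 9.90 FPKM in control. METTL7A stood at 3.78 FPKM without glutamine, at 0.829 and 0.743 FPKM without glucose and at 3.49 and 3.02 FPKM in control. Nearest to ARRDC4 were SPHK1 (0.016), MARCKSL1 (0.085), IFITM1 (0.109), RNU4-2 (0.113) and NKX1-2 (0.117). SPHK1, the sphingosine kinase gene, stood at 2.98 FPKM without glutamine, at 1.09 and 1.29 FPKM without glucose and at 3.41 and 3.06 FPKM in control.

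**Figure D5:**
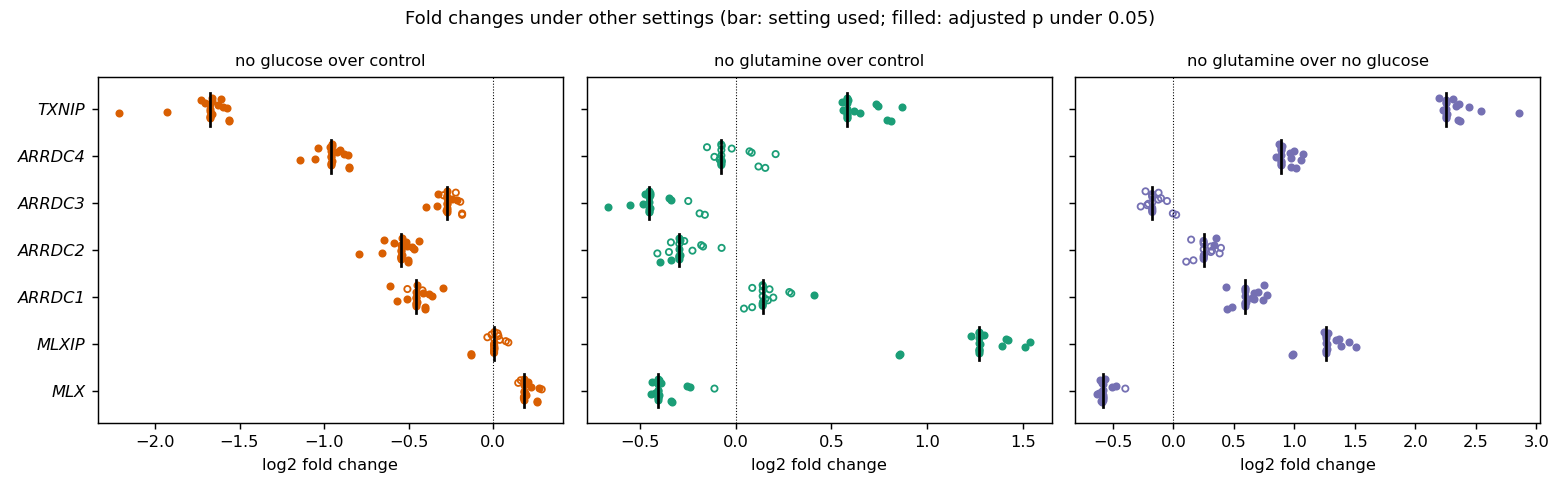
Log2 fold change (x axis) of the 7 genes (rows) in each comparison (panels) under the other settings tried (points, filled where the adjusted p is under 0.05), with a bar at the setting used. TXNIP and ARRDC4 stay below 0 without glucose, and ARRDC4 lies on both sides of 0 in glutamine deprivation over control.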

How the data were processed

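Total RNA was depleted of ribosomal RNA and read from both fragment ends (150 bases each), per the labels' protocols. HISAT2 2.0.5, StringTie and hg38 are named in the submitters' processing notes; the annotation and the strandedness used are not given in the sources used here. No header names a unit; the authors' deposited numbers were read as FPKM because they are fractional, their sums differ between libraries (493129 to 571208), and low values of single-exon genes fall on whole reads (95.2% to 95.7% within 0.05 reads, for 3998 to 4378 genes of 1 to 20 reads), which also gave the inferred depth. Reads behind a member used GENCODE 29 exon lengths and cover counting error only.

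A value column of the glutamine table bears the name of a glucose-deprived library; 1 such column was not mapped, so 5 of 6 labelled libraries entered.

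Library scaling factors (0.959 to 1.08) came from a trimmed mean of log ratios, leaving out 30% on the ratio and 5% on the abundance from either side. Genes with at least 1 FPKM in 1 library entered a linear model of log2(FPKM + 1) in limma 3.58.1 (R 4.3.3), with 1 coefficient per group, 2 residual degrees of freedom and a variance trend over inferred reads. The fit was run on simulated data with the same dispersion for all genes and most genes unchanged. Far more genes were called in the real data, so that run does not show the error rate of these calls. Percent and ratio values were computed from the scaled FPKM. Named genes were the 7 members, up to 4 called and 2 uncalled genes per list, 10 genes always named, and the 5 nearest genes to TXNIP and ARRDC4. Members and lists were chosen with earlier results of these data known. Alternatives covered scaling, pseudocount, filter, variance trend, groups in the fit, replicate block, GC and length trend and left-out libraries.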

Additional observations from a re-analysis of the deposited data

How the results depend on the processing

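TXNIP in all 3 comparisons, ARRDC4 in both with glucose deprivation and MLXIP in both with glutamine deprivation kept direction and call in every setting. The settings numbered 19 for glucose deprivation against control, including the repeated fit, and 18 for each of the others. TXNIP ranged from -2.21 to -1.56 log2 without glucose and from 0.55 to 0.87 without glutamine, and MLXIP from 0.85 to 1.54 without glutamine. Signs turned only for differences that had not passed: MLXIP without glucose was -0.129 after removal of the GC and length trend (adjusted p = 0.0338), also with the replicate block (0.0516), and ranged from -0.035 to 0.030 with a library left out; ARRDC4 without glutamine was 0.072 as deposited, 0.21 scaled to the total, 0.084 under upper-quartile scaling, and 0.155 and, with the replicate block, 0.119 after removal of that trend; ARRDC3 between the deprivations was 0.023 after that removal. The cause was not tested.

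Among the 7 members, 2 were called without glucose when no filter was applied (4 more adjusted p-values between 0.0517 and 0.138, over 34222 genes in place of 16752), and 3 to 6 with a library left out. Scaling to the total called 5445 genes without glucose and 4192 between the deprivations. With a library left out, 5627 to 9108 genes were called without glucose, 5405 to 8513 without glutamine and 5229 to 6302 between the deprivations. Of calls, 48.4% were higher without glucose and 48.2% without glutamine, against 67.7% and 91.03% scaled to the total, where the median of all genes was 0.11 and 0.29; as deposited it was 67.4% without glutamine, and under upper-quartile scaling 59.98% and 68.3%. Between the deprivations 50.2% were higher, against 68.1%, 85.6% and 62.5% as deposited, scaled to the total and under upper-quartile scaling.

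Replicate numbers are shared by the groups, and same-numbered libraries were not treated as pairs. Those of control and glucose deprivation did not deviate together (r = -0.023 across 16752 genes). Glutamine deprivation, with 1 library, could not be checked in this way. With the replicate block 8820, 7550 and 6328 genes were called in the 3 comparisons, and 6, 4 and 5 members as without it. The lone glutamine-deprived library limits every comparison that uses it.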
